A study of Bos taurus with 9 samples.

Results

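Chondromodulin (CNMD), an inhibitor of vessel growth, and 4 genes of vessel regulation, VEGFA, TEK, TIE1 and ANGPTL7, were described across the 3 groups of a bovine expression array study. All probe sets (groups of short probes that together measure a transcript) with 1 of these symbols as their only gene symbol were taken, which gave 6 probe sets for 5 genes, of 13292 probe sets with a single symbol, for 9155 genes, and of 24016 probe sets tested. VEGFA had 2 probe sets and the other genes 1 each. The groups, with 3 arrays each, were articular chondrocytes cultured for 28 days, bone marrow mesenchymal stem cells (MSCs, adherent stromal cells that can form cartilage) cultured for 28 days and called chondrogenic in the labels, and undifferentiated MSCs at day 0. All cells came from calves aged 3 to 6 months. The cells were held in agarose, a hydrogel, and the medium of the 28-day cultures was chemically defined and contained 10 ng/mL TGF-beta3, a growth factor that induces cartilage formation. Each group held donors 1, 2 and 3, with MSCs and chondrocytes matched by calf. The design had no day 28 MSCs without TGF-beta3 and no chondrocytes at day 0, so that time, medium and culture in the gel cannot be told apart.

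Healthy articular cartilage holds no blood vessels, and chondrocytes live there at low oxygen. Chondromodulin is a glycoprotein made by chondrocytes that slows the growth of endothelial cells, the cells that line vessels. VEGFA is the main secreted growth factor of endothelial cells and is induced by low oxygen, also in cartilage. TEK (also called TIE2) is the receptor of the angiopoietins, a second family of vessel growth factors, and TIE1 is its partner receptor. ANGPTL7 is a secreted protein related in structure to the angiopoietins.

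Levels are given as deposited, on a log2 scale on which a difference of 1 is a factor of 2, and cannot be set against each other between probe sets. Differences are given with the standard error (SE) of a linear model in limma over all 9 arrays, and the Benjamini-Hochberg adjustment of p-values ran over all 24016 probe sets, with a call at an adjusted p under 0.05. With 3 arrays a group, their number limits the precision. Arrays of the same group correlated with each other between 0.978 and 0.990. Of 8 measured chondrocyte markers, 7 were called higher in each day 28 group than at day 0, and none was called between the day 28 groups. COL2A1, the main cartilage collagen, averaged 13.73 in chondrocytes, 13.69 in day 28 MSCs and 7.73 in day 0 MSCs, and MATN1, the exception, was at 2.65, 2.67 and 2.74 in the same order. Among stromal markers, day 0 MSCs were at 10.68 for NT5E and 9.75 for CD44, but at 1.87 for LEPR. Of 12 such markers 3 were lower and none higher in either day 28 group than in day 0 MSCs, and 1 was higher and 1 lower in chondrocytes than in day 28 MSCs. Hybridisation controls were low on the donor 3 arrays of both day 28 groups, with means of 10.85 in chondrocytes and 10.81 in MSCs, against 12.00 to 12.33 on the other 7 arrays. The excess of 3′ over 5′ signal in 3 control transcripts, a sign of RNA quality, averaged 0.42 in chondrocytes, 0.67 in day 28 MSCs and 0.23 in day 0 MSCs, and the ranges of the 3 groups did not overlap. Its part in the results below was not tested.

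All 6 probe sets were higher in chondrocytes than in day 0 MSCs, in a comparison in which 31% of all probe sets were called and 15.1% were called higher. Of the same 6, 5 were higher in day 28 MSCs than in day 0 MSCs and none was lower, where 30.2% of all probe sets were called and 14.6% were called higher. Set against day 28 MSCs, chondrocytes had 2 higher (CNMD and TIE1), 1 lower (ANGPTL7) and 3 not called (both of VEGFA and that of TEK), where 10.3% of all probe sets were called, 6.27% higher and 4.06% lower. The values of the groups did not overlap for 6, 5 and 3 of the member probe sets in these comparisons, and for 46.7%, 42.2% and 26.8% of all probe sets. In day 28 against day 0 MSCs these 5 are not the 5 called higher. They include TIE1, which lay lower without a call, and leave out the VEGFA probe set of lower mean, which was called but overlapped. The 3 comparisons share arrays, so that they are not independent of each other. Members were chosen with earlier results of these data known, so that these counts cannot test whether the set stands out.

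**Figure D1:**
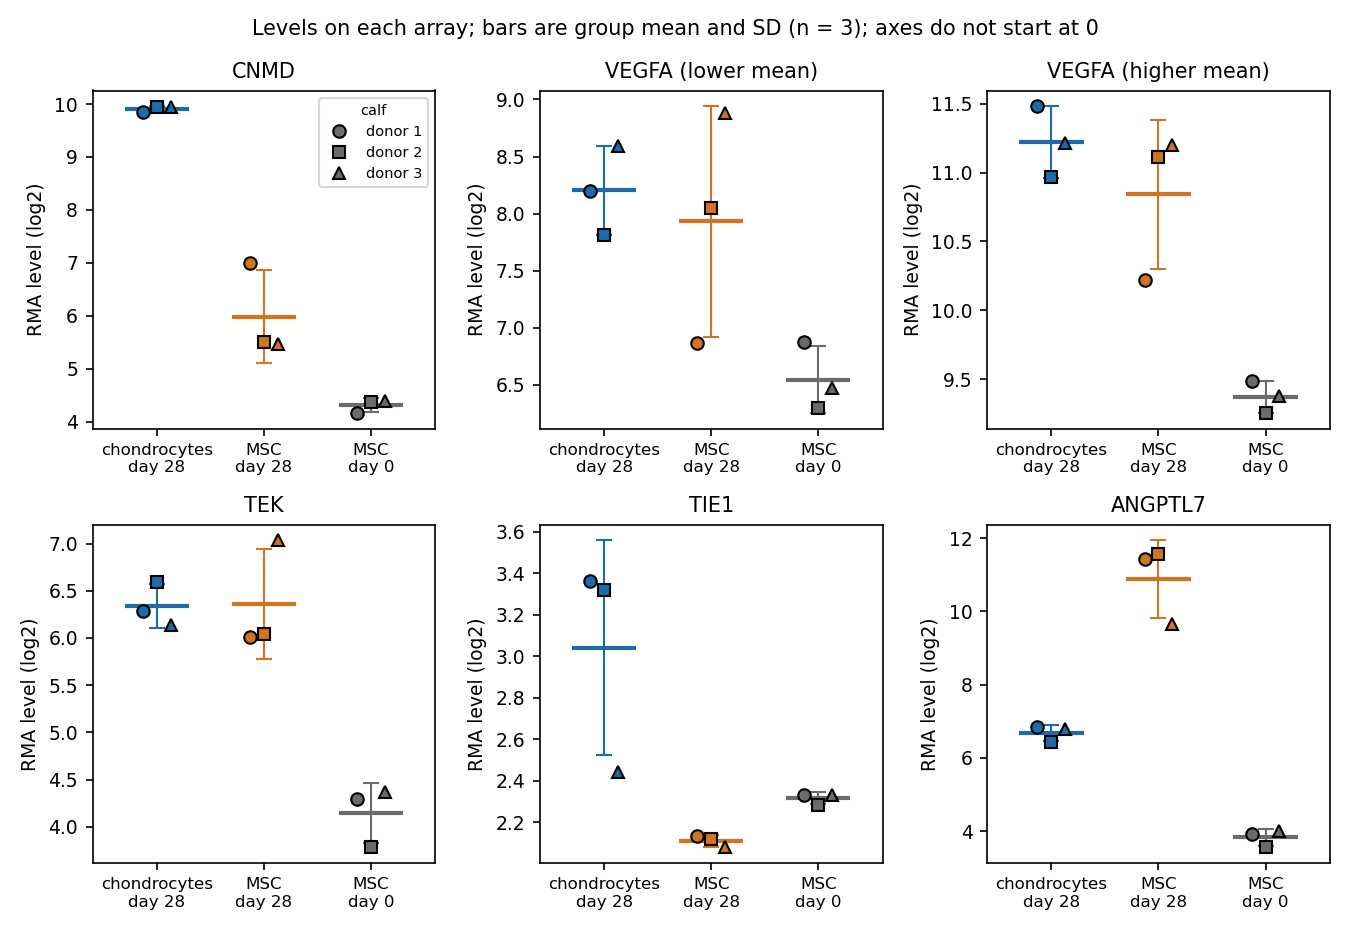
Deposited log2 level (vertical axis, not starting at 0) of each member probe set on the 9 arrays, by group, with 1 symbol shape per donor and lines for the group mean and SD (n = 3). CNMD lies at 9.86 to 9.95 in chondrocytes, 5.46 to 6.99 in day 28 MSCs and 4.16 to 4.40 in day 0 MSCs, whereas ANGPTL7 is highest in day 28 MSCs, at 9.66 to 11.57.

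CNMD, the inhibitor of the set, had the largest excess of the 5 genes in chondrocytes over either MSC group. Its levels in donors 1, 2 and 3 were 9.86, 9.95 and 9.94 in chondrocytes, 6.99, 5.51 and 5.46 in day 28 MSCs, and 4.16, 4.38 and 4.40 in day 0 MSCs. The 3 groups did not overlap, the chondrocytes of the 3 calves lay close together, and donor 1 stood above donors 2 and 3 among the day 28 MSCs. Means were 9.91 ± 0.05, 5.99 ± 0.87 and 4.31 ± 0.13 (SD, n = 3) in chondrocytes, day 28 MSCs and day 0 MSCs.

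CNMD was 15.2-fold higher in chondrocytes than in day 28 MSCs, a difference of 3.93 ± 0.35 (SE, limma adjusted p = 0.000214), and was higher in all 3 donors. Against day 0 MSCs the chondrocytes were 48.6-fold higher (5.60 ± 0.35, limma adjusted p = 8.69e-06), with differences of 5.70, 5.57 and 5.55 in donors 1, 2 and 3. These differences ranked 37th and 28th from the top of 9155 genes. In MSCs CNMD was 3.19-fold higher at day 28 than at day 0 (1.67 ± 0.35, limma adjusted p = 0.00633), by 2.83 in donor 1, 1.12 in donor 2 and 1.06 in donor 3. Without the day 28 MSCs of donor 1 that difference was 1.17 ± 0.14 (limma adjusted p = 0.000743). The rise in MSCs covered 29.9% of the log2 distance between day 0 MSCs and chondrocytes. In these bulk samples fewer cells with the transcript and less transcript per cell cannot be told apart.

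VEGFA, the ligand, was higher in both day 28 groups than in day 0 MSCs and did not pass the test between the day 28 groups. Its probe set of higher mean was at 11.49, 10.97 and 11.21 in the chondrocytes of donors 1, 2 and 3, at 10.22, 11.11 and 11.20 in day 28 MSCs, and at 9.48, 9.25 and 9.38 in day 0 MSCs. Both day 28 groups lay wholly above day 0, and the lowest day 28 value was that of the MSCs of donor 1. Chondrocytes were 3.61-fold higher than day 0 MSCs (1.85 ± 0.26, limma adjusted p = 0.000698) and day 28 MSCs were 2.78-fold higher (1.47 ± 0.26, limma adjusted p = 0.00232). Between chondrocytes and day 28 MSCs the difference was 0.38 ± 0.26, with a 95% interval of -0.20 to 0.96 (limma adjusted p = 0.436). Within donor 1 the difference was 1.26, and within donors 2 and 3 it was -0.14 and 0.01.

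The VEGFA probe set of lower mean was at 8.20, 7.82 and 8.59 in chondrocytes, at 6.87, 8.05 and 8.88 in day 28 MSCs and at 6.87, 6.30 and 6.47 in day 0 MSCs. Here the day 28 MSCs of donor 1 fell among the day 0 values, so that the MSC groups overlapped. The difference between day 28 and day 0 MSCs, 1.39 ± 0.44, passed (limma adjusted p = 0.0407), with -0.003 in donor 1, 1.75 in donor 2 and 2.41 in donor 3. That call was lost in 10 of 19 alternative settings, among them the omission of the day 28 MSCs of donor 2 (1.33) or donor 3 (0.91), of the chondrocytes of donor 1 or 2 (1.39 each), or of the day 0 MSCs of donor 1 (1.55), 2 (1.26) or 3 (1.35). Without both arrays with low controls the difference was also 0.91 (adjusted p = 0.105). Chondrocytes exceeded day 0 MSCs by 1.66 ± 0.44 (limma adjusted p = 0.0192). This call was lost in 4 of 19 settings, without the chondrocytes of donor 1 (1.66) or 3 (1.46) or the day 0 MSCs of donor 2 (1.53) or 3 (1.62), with adjusted p-values up to 0.0677. Between chondrocytes and day 28 MSCs the difference was 0.27 ± 0.44, with a 95% interval of -0.73 to 1.26 (limma adjusted p = 0.793), and it was -0.26 without the day 28 MSCs of donor 1.

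**Figure D2:**
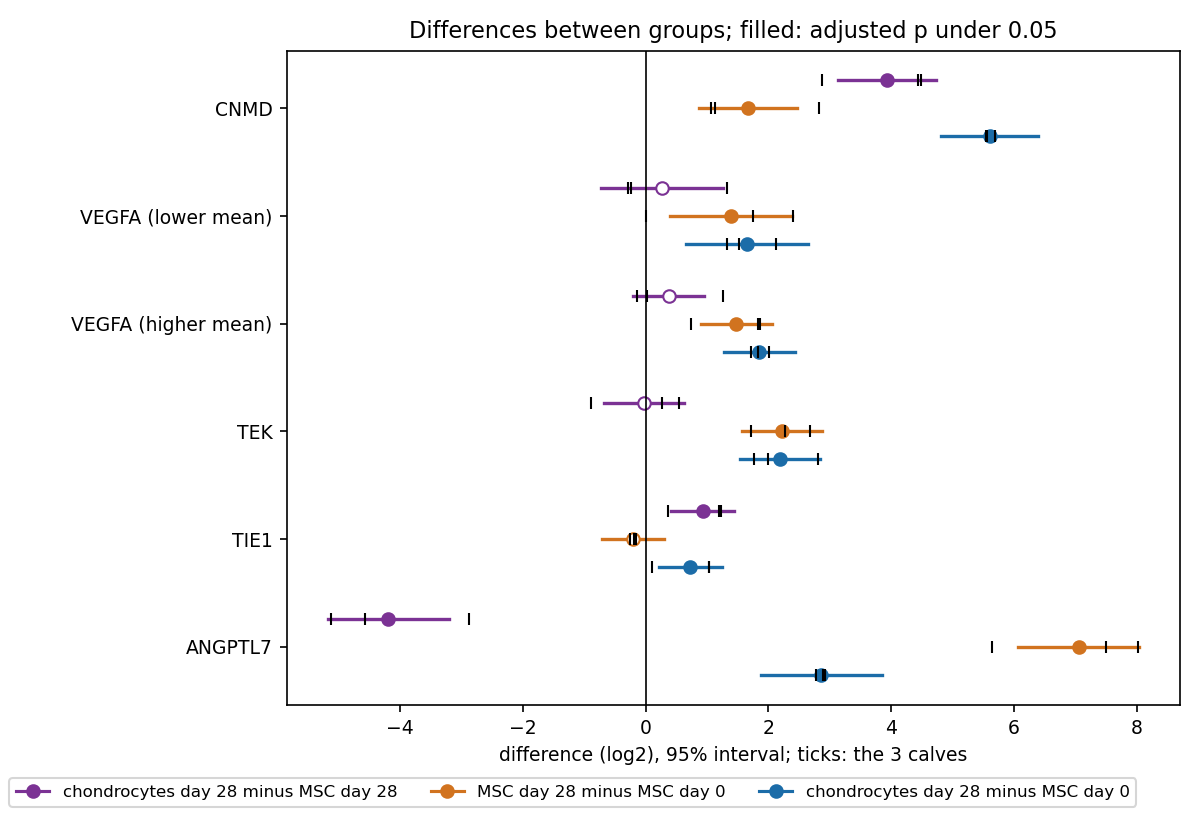
Differences between groups in log2 units (horizontal axis) for each member probe set, with 95% intervals, where filled circles mark an adjusted p under 0.05 and ticks give the difference within each calf. Against day 0, TEK differed by 2.22 in MSCs and 2.19 in chondrocytes, and ANGPTL7 by 7.06 and 2.86.

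TEK, the angiopoietin receptor, was higher in chondrocytes and in day 28 MSCs than in day 0 MSCs. It was at 6.28, 6.60 and 6.14 in the chondrocytes of donors 1, 2 and 3, at 6.01, 6.05 and 7.04 in day 28 MSCs, and at 4.29, 3.78 and 4.37 in day 0 MSCs. All 6 day 28 values lay above the day 0 values, and the donor 3 MSCs at day 28, from an array with low controls, were the highest. Chondrocytes were 4.57-fold higher than day 0 MSCs (2.19 ± 0.29, limma adjusted p = 0.000536) and day 28 MSCs 4.65-fold higher (2.22 ± 0.29, limma adjusted p = 0.000496), in all 3 donors each. Between chondrocytes and day 28 MSCs the difference was -0.03 ± 0.29, with a 95% interval of -0.68 to 0.63 (limma adjusted p = 0.976). Donors 1 and 2 were at 0.27 and 0.55 and donor 3 at -0.90, and without the day 28 MSCs of donor 3 the difference was 0.31 (adjusted p = 0.448).

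TIE1, the partner receptor of TEK, was at 3.36, 3.32 and 2.44 in the chondrocytes of donors 1, 2 and 3, at 2.13, 2.12 and 2.08 in day 28 MSCs, and at 2.33, 2.28 and 2.33 in day 0 MSCs. Chondrocytes of donors 1 and 2 stood apart at the top, those of donor 3 were just above the day 0 values, and day 28 MSCs were the lowest in every donor. Its means of 2.11 and 2.31 in day 28 and day 0 MSCs lay under the 25th percentile of the probe set means of those groups (2.52 and 2.54), so that these are low signals. Chondrocytes were 1.91-fold higher than day 28 MSCs (0.93 ± 0.23, limma adjusted p = 0.0309) and 1.65-fold higher than day 0 MSCs (0.73 ± 0.23, limma adjusted p = 0.0369). Donor 3 differed by 0.36 and 0.11, against 1.23 and 1.03 in donor 1. Day 28 and day 0 MSCs differed by -0.20 ± 0.23, with a 95% interval of -0.71 to 0.31 (limma adjusted p = 0.552).

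Both TIE1 calls were lost in 8 of the 17 alternative settings in which the gene was tested. Against day 28 MSCs the call ended without the chondrocytes of donor 1 (0.77) or 2 (0.79), the day 28 MSCs of donor 1 (0.94), 2 (0.93) or 3 (0.91), or the day 0 MSCs of donor 1 (0.93), with adjusted p-values up to 0.117. Against day 0 MSCs it ended without the chondrocytes of donor 1 (0.57) or 2 (0.59), the day 28 MSCs of donor 1 (0.73), or the day 0 MSCs of donor 1 (0.73), 2 (0.71) or 3 (0.73), with adjusted p-values up to 0.129. Without the 2 arrays with low controls, 1 of which is the lower chondrocyte value, the differences were 1.21 and 1.02 (adjusted p = 0.00413 and 0.00171).

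ANGPTL7 had the largest difference of the set between day 28 and day 0 MSCs and was the one gene called higher in day 28 MSCs than in both other groups. It was at 6.84, 6.44 and 6.78 in the chondrocytes of donors 1, 2 and 3, at 11.42, 11.57 and 9.66 in day 28 MSCs, and at 3.91, 3.55 and 4.01 in day 0 MSCs. The 3 groups did not overlap, and among day 28 MSCs donor 3, from an array with low controls, was the lowest. Day 28 MSCs were 133-fold higher than day 0 MSCs (7.06 ± 0.44, limma adjusted p = 1.06e-05), which ranked 7th from the top of 9155 genes. Chondrocytes were 18.3-fold lower than day 28 MSCs (-4.20 ± 0.44, limma adjusted p = 0.000472), the second place from the bottom. They were 7.27-fold higher than day 0 MSCs (2.86 ± 0.44, limma adjusted p = 0.00118), with 2.93, 2.89 and 2.77 in donors 1, 2 and 3. Without the day 28 MSCs of donor 3 the difference between day 28 and day 0 MSCs was 7.67, and that between chondrocytes and day 28 MSCs was -4.81.

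The members thus fell into different orders of the groups. CNMD was highest in chondrocytes, then day 28 MSCs, then day 0 MSCs, and ANGPTL7 in day 28 MSCs, then chondrocytes, then day 0 MSCs, with all neighbours differing beyond their spread. For VEGFA and TEK the 2 day 28 groups did not pass the test between them, and for TIE1 the 2 MSC groups did not. Spread was mostly widest among day 28 MSCs: the SD was largest there for 5 of the 6 member probe sets, all but TIE1, and for 43.6% of all probe sets. With a single array per calf in each group, differences between calves, cultures and arrays cannot be told apart in this spread. Donor 1 was the highest of the day 28 MSCs for CNMD and the lowest for both VEGFA probe sets, and donor 3 was the highest for TEK and the lowest for ANGPTL7.

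The wider families were read from lists of genes, each gene taken by its probe set of highest mean. Among 9155 genes, 34.5% were called in day 28 against day 0 MSCs (13.5% higher and 21% lower). The share was 13.2% for chondrocytes against day 28 MSCs (8.35% higher and 4.81% lower) and 36% for chondrocytes against day 0 MSCs (15.1% higher and 20.9% lower). The median difference over all genes was -0.11, -0.02 and -0.12 in these comparisons.

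Of 10 VEGF ligands and receptors, 2 were higher and 4 lower in day 28 than in day 0 MSCs (median -0.26). VEGFA was 1 of the 2 that were higher. Falls were seen in the lymphatic growth factor VEGFC (-2.55 ± 0.42, limma adjusted p = 0.0018), the VEGF co-receptors NRP1 (-2.30 ± 0.42, 0.00297) and NRP2 (-1.72 ± 0.28, 0.00156), and VEGFB. A second NRP2 probe set differed by 0.06. Placental growth factor, PGF, was the other gene called higher, at 1.52 ± 0.49 (limma adjusted p = 0.0421). Its call was lost in 10 of 19 settings, the donor block, the omission of both arrays with low controls and that of donor 1 or 2 of the chondrocytes, 2 or 3 of the day 28 MSCs or 2 or 3 of the day 0 MSCs among them, at differences of 1.19 to 2.08 over all settings and adjusted p-values up to 0.131.

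PGF was the only called gene of these 10 in chondrocytes against day 28 MSCs (1 higher, none lower, median 0.30). PGF was at 8.60, 8.36 and 7.44 in the chondrocytes of donors 1, 2 and 3, at 3.38, 4.93 and 5.15 in day 28 MSCs and at 3.48, 2.95 and 2.45 in day 0 MSCs. Chondrocytes lay well above both MSC groups, and the MSC groups overlapped, since donor 1 was no higher at day 28. The difference between chondrocytes and day 28 MSCs was 3.64 ± 0.49 (limma adjusted p = 0.00196), and that from day 0 MSCs was 5.17 ± 0.49 (limma adjusted p = 8.57e-05). Against day 0 MSCs, 2 of the 10 genes were higher in chondrocytes, PGF and VEGFA, and 4 were lower (median -0.33), or 2 lower with arrays centred on ribosomal protein genes.

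Among the VEGF receptors, KDR averaged 1.87 in chondrocytes, 1.98 in day 28 MSCs and 1.95 in day 0 MSCs, each under the 25th percentile of signal. FLT1 was at 3.82, 3.58 and 1.90 in the chondrocytes of donors 1, 2 and 3, at 2.01, 1.69 and 1.74 in day 28 MSCs and at 1.79, 2.15 and 2.18 in day 0 MSCs. Its chondrocyte values had the same order by donor as those of TIE1, with donor 3 low. FLT1 did not pass in chondrocytes against day 28 MSCs (1.29 ± 0.43, limma adjusted p = 0.0937), and its 2 other probe sets differed by 0.01 each.

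Of 8 measured genes among angiopoietins, angiopoietin-like genes and TIE receptors, 4 were higher and 1 lower in day 28 than in day 0 MSCs (median 1.19). Beside ANGPTL7 and TEK the rises were in ANGPTL2, a secreted angiopoietin-like protein (2.23 ± 0.31, limma adjusted p = 0.000682), and in ANGPTL4, an inhibitor of lipoprotein lipase induced by low oxygen (3.11 ± 0.58, 0.00348). The fall was in ANGPT4, at -0.90 ± 0.28 (limma adjusted p = 0.0356), and was lost in 6 of 19 settings, without donor 2 of the chondrocytes, 1 or 2 of the day 28 MSCs or any donor of the day 0 MSCs (-1.10 to -0.76 over all settings, adjusted p up to 0.114). The other TEK ligands measured, ANGPT1 (-0.69 ± 0.55, adjusted p = 0.399) and ANGPT2 (0.17 ± 0.47, 0.829), did not pass.

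Between the cell types at day 28, 2 of these 8 genes were higher in chondrocytes, ANGPTL2 and TIE1, and 1 was lower, ANGPTL7 (median 0.45). ANGPTL2 differed by 1.42 ± 0.31 (limma adjusted p = 0.0194), in the direction opposite to ANGPTL7. Its call was lost without the chondrocytes of donor 1 or 2 or the day 28 MSCs of donor 1, at differences of 1.25 to 1.73 over all settings and adjusted p-values up to 0.0753. With arrays centred on their medians TIE1 lost its call and 1 gene was higher. Against day 0 MSCs 5 were higher in chondrocytes, all 3 angiopoietin-like genes, TEK and TIE1, and 1 was lower, ANGPT1 (median 1.46), with a call that was lost in 4 of 18 settings. ANGPTL2 differed there by 3.65 ± 0.31 and ANGPTL4 by 4.30 ± 0.58 (limma adjusted p = 4.52e-05 and 0.000624).

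**Figure D3:**
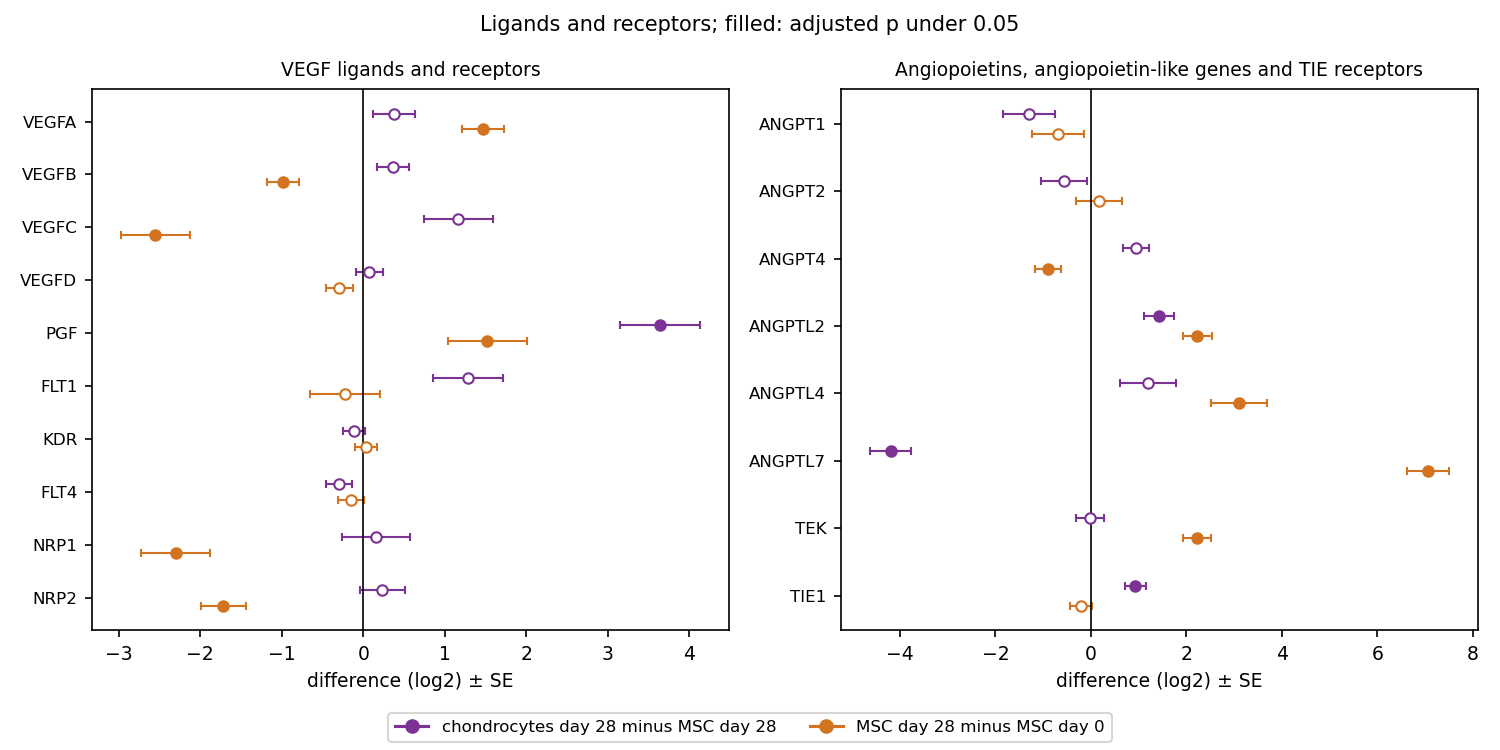
Differences in log2 units (horizontal axis, with SE) of the VEGF family (left) and of angiopoietins, angiopoietin-like genes and TIE receptors (right), for chondrocytes minus day 28 MSCs and for day 28 minus day 0 MSCs, where filled circles mark an adjusted p under 0.05. PGF is at 3.64 and 1.52 in these comparisons, VEGFC at 1.17 and -2.55, and ANGPTL7 at -4.20 and 7.06.

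Among 12 measured inhibitors of vessel growth, CNMD included, 5 were higher and none lower in chondrocytes than in day 28 MSCs (median 0.02). Beside CNMD they were COL15A1, a basement membrane collagen with an inhibitory fragment (2.83 ± 0.19, limma adjusted p = 3.86e-05), SERPINF1, which encodes the secreted inhibitor PEDF (1.01 ± 0.17, 0.00666), the protease ADAMTS1 (3.42 ± 0.69, 0.0139) and thrombospondin 2, THBS2 (2.05 ± 0.42, 0.0146). Without the 2 arrays with low controls 3 were higher, and ADAMTS1 and THBS2 lost their calls, as they did without the chondrocytes of donor 2 (over all settings 2.83 to 3.79 with adjusted p up to 0.0970, and 1.39 to 2.52 with adjusted p up to 0.0720). A second ADAMTS1 probe set differed by 0.24. TNMD, the gene most related to CNMD, known from tendon, was at 2.35 in chondrocytes and 2.43 in day 28 MSCs (-0.08 ± 0.25, limma adjusted p = 0.902).

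In day 28 against day 0 MSCs 2 of the 12 were higher, CNMD and ISM1, and 4 were lower (median -0.23). The falls were in SERPINF1 (-3.58 ± 0.17, limma adjusted p = 3.48e-06), THBS2 (-3.80 ± 0.42, 0.000194), COL15A1 (-1.33 ± 0.19, 0.000781) and ADAMTS1, of which the second probe set differed by -0.39. Thrombospondin 1, THBS1, did not pass by its probe set of highest mean (-0.18 ± 0.15, limma adjusted p = 0.417). Of its 5 other probe sets, which ranged from -1.07 to -0.08, 4 were called lower. ISM1, which encodes the secreted protein isthmin, rose by 5.73 ± 0.84 (limma adjusted p = 0.000962). CNMD therefore moved in the direction opposite to SERPINF1, THBS2 and COL15A1 in MSCs and in the same direction as they did between the cell types. Against day 0 MSCs 3 of 12 were higher in chondrocytes, CNMD, COL15A1 (limma adjusted p = 0.000413) and ISM1 (4.63 ± 0.84), and 3 were lower (median -0.06), among them SERPINF1 (-2.57 ± 0.17).

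Of 13 measured promoters of vessel growth outside the VEGF family, 5 were higher and 3 lower in day 28 than in day 0 MSCs (median 0.22). The growth factor FGF2 rose by 3.13 ± 0.23 (limma adjusted p = 2.79e-05), ANGPTL4 as given above, and SPHK1, a lipid kinase, fell by 1.98 on the log2 scale (limma adjusted p = 0.0014). FGF1 was lower by the probe set of highest mean (-1.13 ± 0.24, limma adjusted p = 0.00661), while its 11 other probe sets ranged in sign. In chondrocytes against day 28 MSCs 1 was higher, SPHK1 (1.73 ± 0.31, limma adjusted p = 0.0082), and none was lower (median -0.17). FGF2 did not pass there by its probe set of highest mean (0.51 ± 0.23, limma adjusted p = 0.22), but its other probe set was called higher, at 1.05. Against day 0 MSCs 4 were higher in chondrocytes and 2 lower (median -0.12), with FGF2 at 3.64 ± 0.23 (limma adjusted p = 9.54e-06).

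VEGFA and ANGPTL4 are known targets of the response to low oxygen, and other genes of that response were read beside them. Of 16 measured genes, 9 were higher and none lower in day 28 than in day 0 MSCs (median 0.45), and 10 were higher and none lower in chondrocytes than in day 0 MSCs (median 0.55). HIF1A, itself a subunit of a hypoxia-inducible factor, was 1 of the 9 (0.56 ± 0.12) and was not among the 10. EPAS1, a subunit of another such factor, was counted with the promoters above. It was called lower in both comparisons (-1.69 ± 0.44 and -2.62 ± 0.44). The glucose transporter SLC2A1 was higher by 2.07 ± 0.12 in day 28 MSCs and by 2.65 ± 0.12 in chondrocytes (limma adjusted p = 7.94e-06 and 1.39e-06), and the oxygen sensor EGLN3 by 4.29 ± 0.52 and 4.77 ± 0.52 (0.000333 and 0.000183). KDM3A, a histone demethylase, and DDIT4, an inhibitor of the growth kinase mTOR, rose in MSCs by 1.27 ± 0.21 and 1.38 ± 0.23 (limma adjusted p = 0.00169 and 0.00194). Without the 2 arrays with low controls 5 of the 16 were called higher in MSCs. The MSC calls of EGLN1, P4HA2, PFKFB3 and BNIP3 were lost in 12, 11, 8 and 5 of 19 settings. The 7 genes not called in MSCs included LDHA (-0.03), PGK1 (0.02), ENO1 (-0.01), ALDOA (0.11) and NDRG1 (-0.59). Of 2 other LDHA probe sets, 1 was called lower in day 28 than in day 0 MSCs. In chondrocytes against day 28 MSCs 2 were higher, SLC2A1 (0.58 ± 0.12, limma adjusted p = 0.0159) and the glycolytic enzyme ENO1 (0.61 ± 0.13, 0.0181), and none was lower (median 0.32). Of these, SLC2A1 lost its call without the chondrocytes of donor 1 or 3 or without both arrays with low controls, and ENO1 without the chondrocytes of donor 1 or 2 or the day 28 MSCs of donor 2. Over all settings SLC2A1 was at 0.52 to 0.73 with adjusted p up to 0.0599, and ENO1 at 0.53 to 0.76 with adjusted p up to 0.0728. BNIP3 did not pass by its probe set of highest mean (0.68 ± 0.25, limma adjusted p = 0.134). Its 2 other probe sets were both called higher in chondrocytes than in day 28 MSCs, at 1.43 and 1.45. The part of the response to low oxygen in the differences of VEGFA and ANGPTL4 was not tested.

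**Figure D4:**
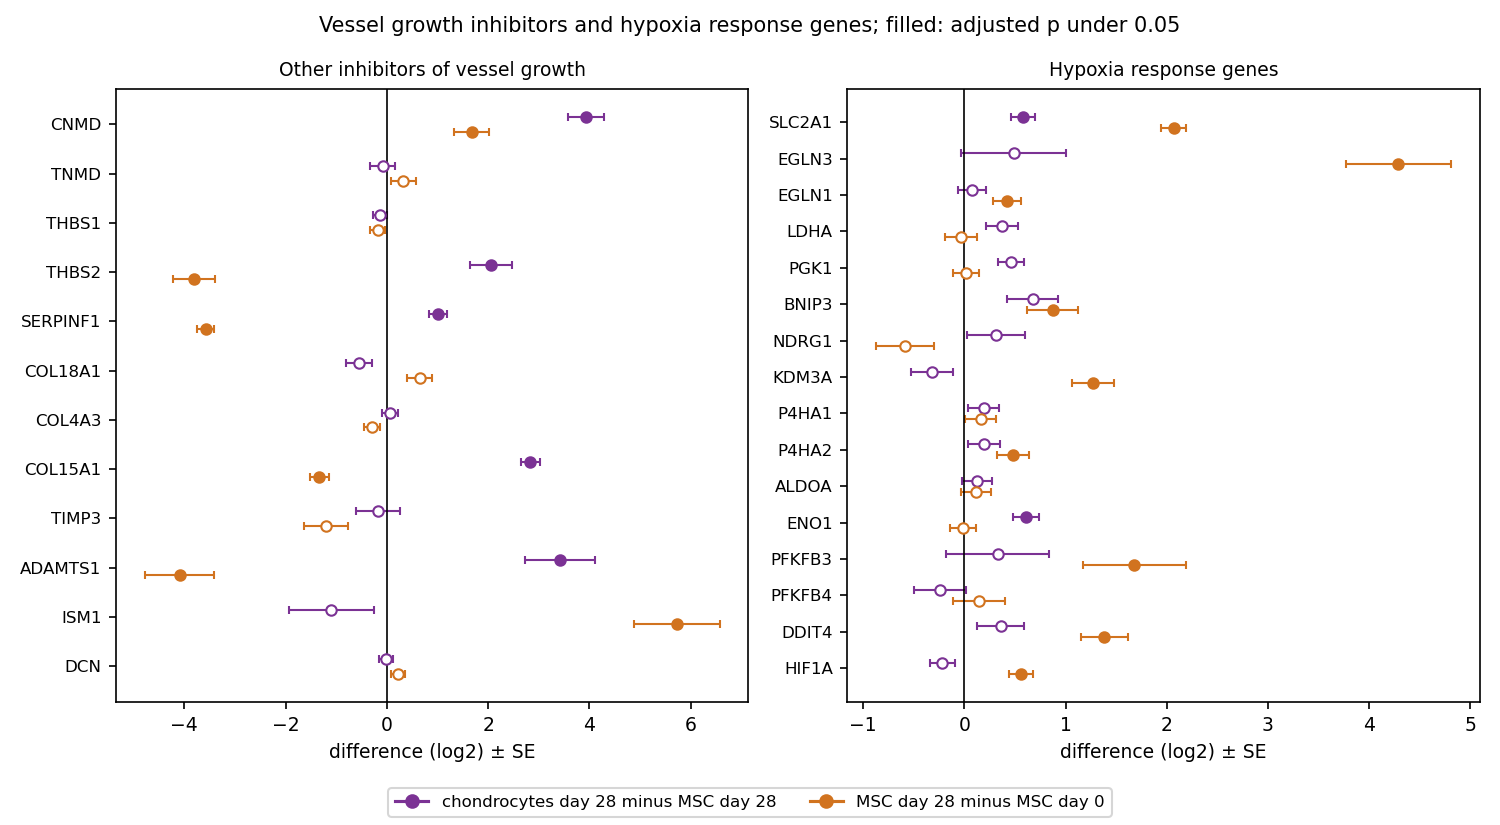
Differences in log2 units (horizontal axis, with SE) of inhibitors of vessel growth (left) and of genes of the response to low oxygen (right), for chondrocytes minus day 28 MSCs and for day 28 minus day 0 MSCs, where filled circles mark an adjusted p under 0.05. CNMD is higher in both comparisons, at 3.93 and 1.67, while SERPINF1 is at 1.01 and -3.58.

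TEK and TIE1 are known best from endothelial cells, so that markers of these cells were read on the same arrays. Of 15 measured endothelial markers, none was called in chondrocytes against day 28 MSCs (median 0.00), 1 was higher in chondrocytes than in day 0 MSCs and 1 was higher in day 28 than in day 0 MSCs, with none lower (medians -0.08 and -0.15). That gene was ERG, a transcription factor of endothelium and of cartilage, at 1.24 ± 0.23 in chondrocytes (limma adjusted p = 0.00337) and 0.72 ± 0.23 in day 28 MSCs (0.0408) over day 0 MSCs. The call in MSCs was lost in 11 of 19 settings, the omission of any array of either day 28 group or of donor 1 of the day 0 MSCs among them (0.45 to 0.89 over all settings, adjusted p up to 0.120). A second ERG probe set differed by -0.13 in chondrocytes and -0.07 in day 28 MSCs. In each group 7 of the 15 lay under the 25th percentile of signal, and CDH5, the cadherin of endothelial junctions, KDR, PLVAP, SOX18 and MMRN1 did so in all 3, while CD34, CLDN5, EGFL7, ENG, ERG, ROBO4 and VWF lay above it in all 3. PECAM1 was at 2.45 in chondrocytes, 2.48 in day 28 MSCs and 2.66 in day 0 MSCs, and CDH5 at 2.37, 2.51 and 2.49. The largest differences of either sign between chondrocytes and day 28 MSCs were those of FLT1, CD34 and ENG. They were 1.29 ± 0.43, 0.77 ± 0.32 and 0.63 ± 0.20, higher in chondrocytes without a call (limma adjusted p = 0.0937, 0.17 and 0.0842). The 2 other FLT1 probe sets differed by 0.01 each. The summed level of the 15 markers ranged from 9.75 to 10.08 in chondrocytes, from 9.20 to 9.50 in day 28 MSCs and from 9.02 to 9.41 in day 0 MSCs. This sum adds levels of different probe sets and follows mainly its brightest members. Among these, ENG, which is also a stromal marker, averaged 8.87 in chondrocytes, 8.24 in day 28 MSCs and 8.45 in day 0 MSCs, and ERG averaged 8.56, 8.04 and 7.32. The part of these markers in the differences of TEK and TIE1 was not tested.

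**Figure D5:**
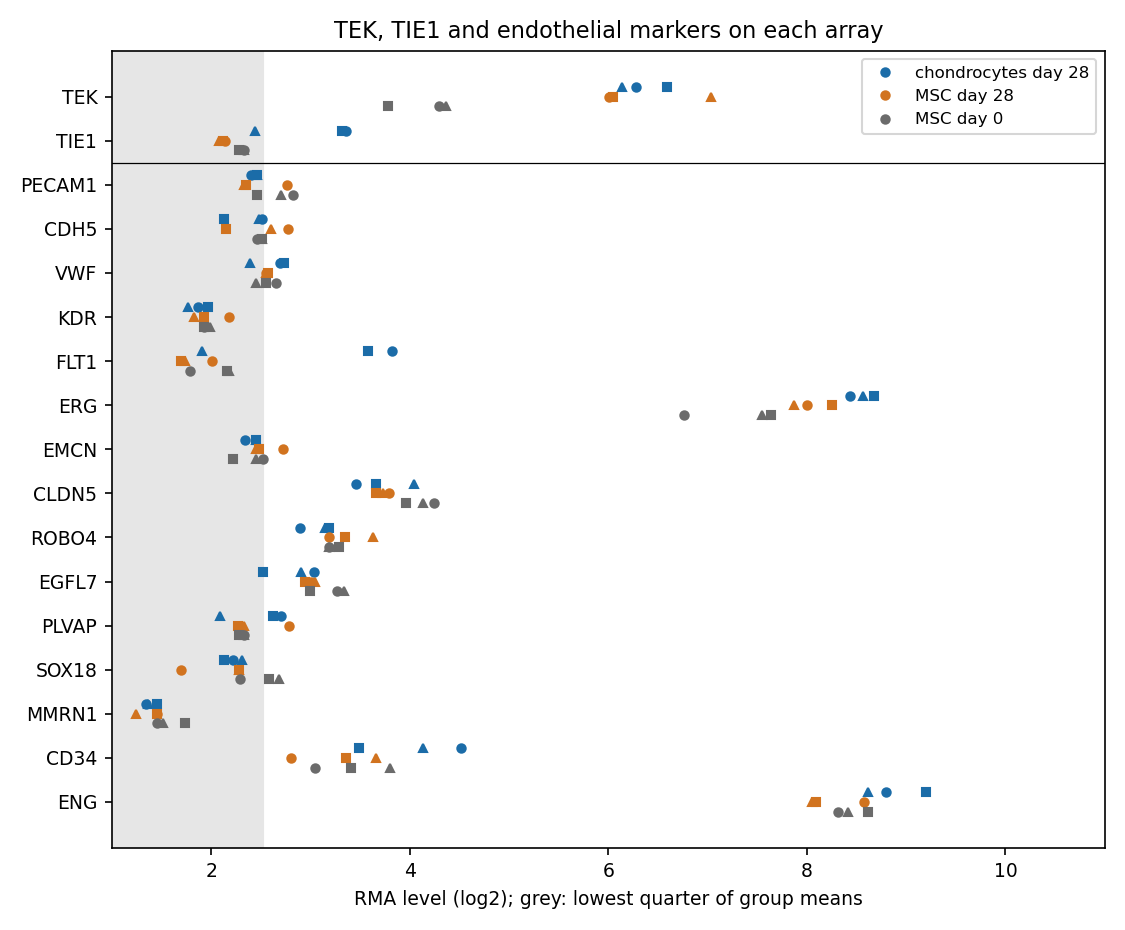
Deposited log2 level (horizontal axis) of TEK, TIE1 and 15 endothelial markers on each of the 9 arrays, coloured by group with 1 symbol shape per donor, where the shaded band is the range under the 25th percentile of group means. TEK lies at 6.01 to 7.04 on all day 28 arrays, whereas KDR, MMRN1 and SOX18 have their group means inside the band in every group.

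Markers of mural cells, which wrap vessels, and of blood cells were read likewise. Of 10 mural markers, 2 were higher (CSPG4 and MCAM) and 3 lower (ACTA2, TAGLN and CNN1) in day 28 than in day 0 MSCs (median -0.15). Between the cell types ACTA2 and TAGLN were higher and MCAM was lower in chondrocytes (median 0.34), and against day 0 MSCs CSPG4 was higher and ACTA2 and TAGLN were lower (median -0.37). The TAGLN call between the cell types was lost in 5 of 19 settings. Their summed level ranged from 10.67 to 11.68 in chondrocytes, from 9.56 to 9.96 in day 28 MSCs and from 12.35 to 12.83 in day 0 MSCs. Of 14 blood cell markers, 1 was higher (CSF1R) and 4 lower (CTSS at -1.15, CD68, TYROBP and AIF1) in day 28 than in day 0 MSCs (median -0.13), with the calls of TYROBP and AIF1 lost in 3 and 6 of 18 settings. In chondrocytes 1 was higher and 1 lower against day 28 MSCs, and 2 were higher and 4 lower against day 0 MSCs (medians 0.05 and -0.08). Their summed level ranged from 9.14 to 9.50 in chondrocytes, from 8.91 to 9.29 in day 28 MSCs and from 9.27 to 10.15 in day 0 MSCs. The leukocyte antigen PTPRC, the globins HBA and HBB, CD3E, CD79A and ITGAM were under the 25th percentile of signal in every group. CD14, CD68, CSF1R, CTSS, FCER1G and LAPTM5 lay above it in every group. CTSS averaged 6.80 in chondrocytes, 7.92 in day 28 MSCs and 9.07 in day 0 MSCs, and CSF1R 7.61, 6.01 and 4.39. In the day 0 MSCs of donors 1, 2 and 3, AIF1 was at 4.91, 5.28 and 2.45 and TYROBP at 5.43, 5.92 and 3.22. Donor 3 thus lay nearer to the day 28 MSC means of 2.14 and 2.43 than donors 1 and 2 did. The part of these markers in the differences of the members was not tested.

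Genes with the most alike profiles were taken as those with the smallest root mean square difference from a member over the 9 arrays, after each profile was centred, among 9027 named genes. For CNMD they were FAM107A (0.46), MPZL2 (0.62), LBP (0.67), IGSF11 (0.69) and CPE (0.73), where the own root mean square of CNMD was 2.38. For ANGPTL7 they were SHISAL2B (0.98), the laminin receptor subunit ITGA7 (1.07), the parathyroid hormone receptor PTH1R (1.27), SEPTIN4 (1.45) and PDE6C (1.53), against an own value of 2.94. No gene came as close to ANGPTL7, relative to its own value, as FAM107A did to CNMD. For TEK they were LNP1 (0.29), PRIMPOL (0.29), RTKN (0.29), CTC1 (0.31) and the collagen-modifying enzyme PLOD1 (0.33), against 1.09. For VEGFA by the probe set of higher mean they were TUBE1 (0.21), RAPGEF2 (0.21), MYBPH (0.22), PLSCR4 (0.25) and PAXIP1 (0.26), against 0.85, and by the other probe set MLLT10 (0.32), ETAA1, HERC5, GTPBP3 and ZMYM1 (0.38), against 0.90. For TIE1 they were LIPE (0.18), CRTC1, P3H1, GINS3 and IDH2 (0.20), against 0.47. The 2 VEGFA probe sets shared none of these genes.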

How the data were processed

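Each of the 9 samples was hybridised to a single-colour array. Trizol extraction, priming at the poly(A) tail, amplification and biotin labelling came before it, per the labels' protocols. The deposited values are log2 levels from RMA according to the submitters' processing notes, whose version is not given in the sources used here. RMA gives the probe signals of all arrays the same distribution before they are summarised, which hides any change in total RNA. Array medians of the deposited probe set values ranged from 4.91 to 5.10.

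Of the probe sets, 112 controls were left out and 24016 were tested. Symbols came from the platform annotation: 13292 probe sets had 1 symbol, 86 several and 10638 none, and those without a single symbol were tested but not named. A list gene was represented by its probe set of highest mean, as 2913 of 9155 genes had more than 1. Genome positions and sequences were not used here. The groups were compared in limma 3.58.1 (R 4.3.3; lmFit and eBayes, all 3 groups in 1 fit, Benjamini-Hochberg adjustment, adjusted p under 0.05), and the procedure was tested on simulated data.

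Donor numbers in the labels mark the same calf. Deviations from the group means correlated between 0.108 and 0.412 for the 9 pairs of arrays of the same donor and between -0.303 and 0.152 for the 18 pairs of different donors. The fit without the donor gave the results, with the donor as a block as an alternative. Beyond the members, up to 4 genes per list and comparison were named, those of smallest p, with a few more where a count was small or a gene bears on a member's known function, chosen after their values were seen. The 5 most alike genes were given for each member. Members, lists and rules were chosen with earlier results of these data known. Alternatives were other scalings, filters, variance models, fits of 2 groups, blocks and omission of arrays.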

Additional observations from a re-analysis of the deposited data

How the results depend on the processing

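Over 19 alternative settings, the 18 differences of the members gave 336 values, of which 299 kept their direction and side of the threshold, 30 lost their call and 7 changed sign. CNMD, ANGPTL7, TEK against day 0 and VEGFA by the probe set of higher mean kept every call in all 19. The losses were in TIE1, which both filters on low signal remove, and in the VEGFA probe set of lower mean. Changes of sign were in uncalled differences between chondrocytes and day 28 MSCs: that of TEK (-0.03) was 0.41 without the 2 arrays with low hybridisation controls, 0.13 with centring on 87 ribosomal protein probe sets, 0.023 with cyclic loess and -0.20 to 0.31 with 1 array left out. That of VEGFA by the probe set of lower mean (0.27) was -0.26 to 0.74 with 1 array left out. With the donor as a replicate block (pairing by calf), 8247 probe sets were called in chondrocytes against day 0 MSCs, 3110 in chondrocytes against day 28 MSCs and 8070 in day 28 against day 0 MSCs, against 7445, 2482 and 7256 without it, and no member call changed. With 1 array left out, 1356 to 2598 probe sets were called in chondrocytes against day 28 MSCs, the lowest without the chondrocytes of donor 2.

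Scaling moved the split of calls. In chondrocytes against day 28 MSCs 1506 were higher and 976 lower, against 2069 and 596 with ribosomal centring and 1344 and 1359 with centring on array medians. In chondrocytes against day 0 MSCs the split was 3622 to 3823, against 4544 to 2622 and 3110 to 5255. Of 300 list counts recomputed under 5 settings chosen after seeing the data, 29 moved by more than 1.5 times. Signals under the 25th percentile, such as TIE1 in MSCs, limit what can be read from a difference there.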

Other observations

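The alpha subunits of the hypoxia-inducible factors, HIF1A and EPAS1, moved in opposite directions in MSCs. They were chosen after their values had been seen. HIF1A was at 11.61, 11.74 and 11.75 in the day 28 MSCs of donors 1, 2 and 3, against 11.01, 11.23 and 11.18 in day 0 MSCs, a difference of 0.56 ± 0.12 (SE, limma adjusted p = 0.00771). EPAS1 was at 10.96, 9.45 and 9.12 in day 28 MSCs, against 11.88, 11.43 and 11.27 in day 0 MSCs, a difference of -1.69 ± 0.44 (limma adjusted p = 0.0181). Neither pair of groups overlapped. Donor 1, which had the lowest VEGFA among the day 28 MSCs, had the lowest HIF1A and the highest EPAS1 there. EPAS1 was highest in donor 1 among the day 0 MSCs as well. The EPAS1 call was lost in 4 of 19 alternative settings, without the day 28 MSCs of donor 2 or 3, without the day 0 MSCs of donor 1 and without both arrays with low hybridisation controls, with adjusted p-values up to 0.0674 and differences from -2.25 to -1.33 over all settings. A second EPAS1 probe set, at -1.97, was not called. In chondrocytes EPAS1 was at 8.51, 8.81 and 9.41, and 2.62 lower on the log2 scale than in day 0 MSCs (limma adjusted p = 0.00207), while HIF1A differed from day 0 MSCs by 0.34 ± 0.12 (limma adjusted p = 0.0622).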
